A study of Mus musculus with 6 samples.

Results

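The genes described here form the pathway that positions dendritic cells in the spleen through oxysterols and sphingosine 1-phosphate (S1P). They are the receptor gene Gpr183, which encodes EBI2, the oxysterol enzyme genes Ch25h, Cyp7b1 and Hsd3b7, and the S1P receptor genes S1pr1, S1pr2, S1pr3 and S1pr4. They were taken by symbol, as probe sets that carry exactly 1 gene symbol, and each had 1 such probe set: 8 of 28853 probe sets, and 8 of the 19938 genes with a probe set of a single symbol. The 8 were chosen by function with their log2 values in the 3 groups below already known, so those values are given as a description, without a test, and nothing is read from how many of them differ. The study hybridised 6 Affymetrix arrays with RNA of sorted dendritic cells (wild-type mouse spleen), with no treatment given in the labels. There were 2 arrays for each of 3 groups: CD24+ cDC1 (CD172a-negative in the series title), CD24+CD172a+ cDC2, and the cDC2 that are CD24-CD172a+. The sample labels call the last group CD172a+ alone, and its lack of CD24 comes from the series description. Neither strain nor age of the mice is stated, nor whether replicate arrays hold RNA of different animals, so every error below measures the spread between arrays, which may be technical. Each SE of the fit also draws on the spread of all genes, so it is not the spread of that gene alone.

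EBI2 is a G protein-coupled receptor that guides B cells and dendritic cells towards dihydroxylated cholesterol derivatives. CH25H and CYP7B1 each add a hydroxyl group to cholesterol to make this ligand, largely in stromal cells of lymphoid organs, and HSD3B7 breaks the ligand down, so that its concentration differs between zones of the spleen. In the spleen EBI2 is known for holding CD4+ cDC2 in the bridging channels of the marginal zone. S1P is abundant in blood and low in tissue, and its receptors draw cells towards it (S1PR1) or hold them back (S1PR2), while S1PR3 and S1PR4 occur on several kinds of immune cell.

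Upstream sequences were found in the RefSeq promoter table (build GRCm38.p6) for 6 of the 8 genes, and 3 are shown: that of Gpr183, which was far lower in cDC1 than in cDC2, and those of the enzyme genes Ch25h and Hsd3b7, whose levels moved little. Each is the 250 bases before the annotated start, 5′ to 3′ on the gene's own strand, at chr14:121965194-121965443 (minus strand) for Gpr183, chr19:34475149-34475398 (minus strand) for Ch25h and chr7:127800359-127800608 (plus strand) for Hsd3b7. Capitals mark matches on either strand to any of 9 motifs of factors that act in dendritic cells or sterol metabolism.
Gpr183: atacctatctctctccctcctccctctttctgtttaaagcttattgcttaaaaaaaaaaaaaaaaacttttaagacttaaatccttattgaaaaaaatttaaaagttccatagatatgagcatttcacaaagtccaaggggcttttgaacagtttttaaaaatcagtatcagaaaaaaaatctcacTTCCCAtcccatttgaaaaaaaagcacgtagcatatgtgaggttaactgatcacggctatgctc
Ch25h: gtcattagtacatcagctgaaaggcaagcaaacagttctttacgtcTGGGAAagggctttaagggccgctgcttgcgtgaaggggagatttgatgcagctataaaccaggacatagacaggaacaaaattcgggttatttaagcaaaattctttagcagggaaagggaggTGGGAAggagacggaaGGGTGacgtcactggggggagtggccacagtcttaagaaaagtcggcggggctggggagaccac
Hsd3b7: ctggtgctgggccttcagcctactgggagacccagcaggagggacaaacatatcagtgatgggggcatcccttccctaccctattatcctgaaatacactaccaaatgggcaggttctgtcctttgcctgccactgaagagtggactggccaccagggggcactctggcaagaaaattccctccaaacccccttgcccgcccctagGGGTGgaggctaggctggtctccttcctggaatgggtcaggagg
The motifs searched were GGAA followed by GAAA after 2 bases of any kind (ETS-IRF composite), GAAA followed likewise by GAAA (interferon-stimulated response element), GAGGAA (PU.1), TGANTCA (AP-1), TGGGAA (RBPJ, the DNA-binding partner of Notch), CACCC (KLF), TGTGGT (RUNX), CACCTG (E proteins) and TCACNCCAC (sterol response element). The first and the second of these can share bases, and no matches overlapped in the 3 windows shown. The Gpr183 window held 1 match, to the RBPJ letters, beginning 64 bases before the start. Those letters also occur in 21.6% of the 32851 upstream windows of the same length in the table. The Ch25h window held 2 matches to the RBPJ letters and 1 to the KLF letters, and the Hsd3b7 window 1 to the KLF letters, which 52.0% of all windows hold. G and C made up 32.0% of the Gpr183 window, against 50.4% for Ch25h, 58.0% for Hsd3b7 and a median of 52.4% over all windows. These matches are letters in a window and not sites of binding, which was not measured here.

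The sorted populations carried the genes they were sorted by. Cd24a, for the sort marker CD24, averaged 11.75 in cDC1 and 10.88 in CD24+CD172a+ cDC2, but 8.83 in CD24-CD172a+ cDC2, and Sirpa, for CD172a, averaged 5.18, 10.14 and 10.19 (log2 intensities, as are all levels below). Of 11 cDC1 markers, 9 were called lower in each cDC2 population than in cDC1, and of 10 cDC2 markers, 9 and 10 were called higher in the CD24+ and the CD24- cDC2, a gene being called when its adjusted p from limma, fitted over all 19938 genes, was under 0.05. Array medians ran from 29.5 to 30.6 on the linear scale. The 25th percentile of all probe sets, 3.72, is used below as a mark of dim values, since no call of detection above background was used.

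**Figure D1:**
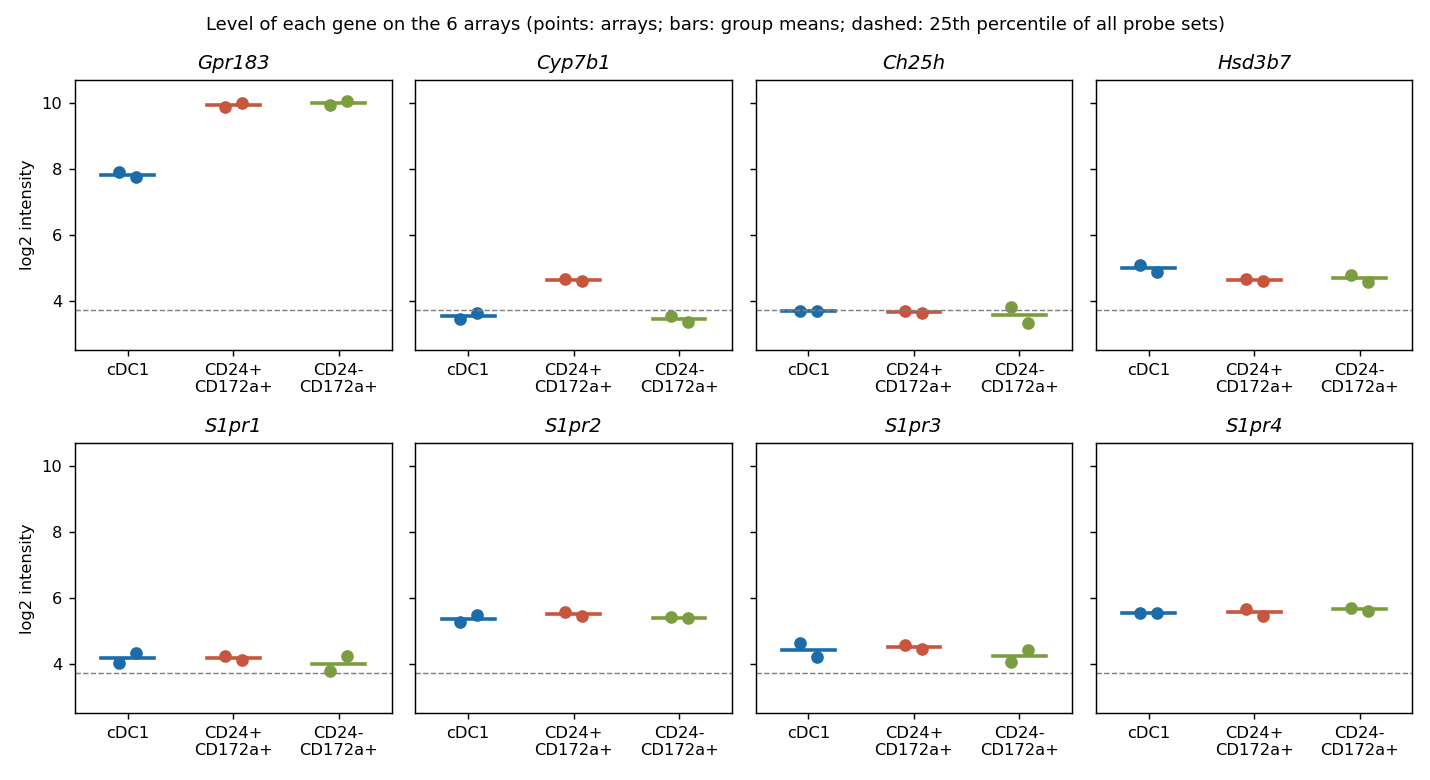
Log2 intensity (vertical axis) of the 8 genes on the 6 arrays, by sorted population (horizontal axis); points are arrays, short bars group means, and the dashed line is the 25th percentile of all probe sets (3.72). Gpr183 stood near 10 on all 4 cDC2 arrays and below 8 on both cDC1 arrays, and Cyp7b1 rose above the dashed line on the CD24+CD172a+ arrays alone.

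Gpr183, the gene of the receptor EBI2 (probe set 10422496), showed the largest difference between cDC1 and cDC2 among the 8 genes. It measured 7.89 and 7.76 on the cDC1 arrays, 9.88 and 10 on the CD24+CD172a+ arrays, and 9.92 and 10.05 on the CD24-CD172a+ arrays. All 4 cDC2 arrays lay above both cDC1 arrays, with 1.99 between the nearest arrays of cDC1 and CD24+CD172a+ cDC2, while replicate arrays differed by at most 0.14. The level in CD24+CD172a+ cDC2 was 4.33-fold that in cDC1 (a log2 difference of 2.11 ± 0.13, SE of the fit), and the level in CD24-CD172a+ cDC2 was 4.46-fold (2.16 ± 0.13). Both differences share the cDC1 arrays. In RNA of a sorted population, fewer cells with the transcript and less of it per cell cannot be told apart, here and below. Among all 19938 genes, ordered from the most raised in cDC2, Gpr183 took place 127 in the first of these and 128 in the other.

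Between the cDC2 populations the arrays of Gpr183 overlapped, and their means differed by -0.04 ± 0.13. The order of levels was therefore cDC1 lowest, with the cDC2 populations above it and not apart from each other beyond their spread (9.94 ± 0.09 and 9.98 ± 0.09, SD, n = 2). EBI2 transcripts in cDC1 were not near the bottom of the scale: the lower cDC1 array, at 7.76, stood well above the 25th percentile.

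B cells also carry EBI2, and monocytes and macrophages can enter a CD172a+ sort, so their markers are set beside this result. The intensities of 9 measured B cell markers summed to 295 to 345 on the cDC1 arrays, 274 to 281 on the CD24+CD172a+ arrays and 272 to 275 on the CD24-CD172a+ arrays. That order rested on Ms4a1, the gene of CD20, since the other 8 summed to 191 to 206, 232 to 238 and 219 to 233. Those 8 were thus higher in sum where Gpr183 was higher, but not gene by gene. Blk measured 4.91 and 4.83 in cDC1, 6.17 and 5.88 in CD24+CD172a+ cDC2, and 6.11 and 5.69 in CD24-CD172a+ cDC2. Pax5 lay between 4.67 and 4.81 on all 6 arrays, and Ebf1 was under the 25th percentile on all 6. Called against cDC1 in CD24+CD172a+ cDC2 were Blk (1.16), Fcer2a (0.73) and Cd79b (0.57), all higher, and Ms4a1 (-1.52) and Fcrla (-1.28), both lower; in CD24-CD172a+ cDC2 they were Blk (1.03) and Fcer2a (0.63), higher, and Ms4a1 (-1.38) and Fcrla (-1.0), lower.

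The 13 measured monocyte and macrophage markers summed to 4202 to 4261 in cDC1, 2016 to 2362 in CD24+CD172a+ cDC2 and 3946 to 4221 in CD24-CD172a+ cDC2. Most of the sum in each group was Lyz2, the lysozyme gene, and the other 12 summed to 1001 to 1188, 958 to 1053 and 1500 to 1660. Of the 13, 3 were called higher and 4 lower in CD24+CD172a+ cDC2 than in cDC1, and 5 higher and 2 lower in CD24-CD172a+ cDC2. Ccr2 (0.76) was among those higher in the former, and C1qa (1.09), C1qb (1.14) and C1qc (1.2) among those higher in the latter. Between the cDC2 populations, where the arrays of Gpr183 overlapped, 7 were called lower in CD24+CD172a+ cDC2 and 0 higher. The 7 were Adgre1, C1qa, C1qb, C1qc, Spic, Lyz2 and Treml4. Csf1r, the receptor gene for colony-stimulating factor 1, moved with Gpr183, higher than in cDC1 by 3.77 and 3.59, as did Adgre1, the gene of F4/80, by 3.60 and 4.72. Treml4 (-3.53 and -2.3) and Vcam1 (-1.37 and -0.91) went the other way and were called lower in both. Against cDC1, Spic (-1.11) and Lyz2 (-1.41) were called lower in CD24+CD172a+ cDC2 only. The sums without the brightest marker were added after the data were seen.

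The 9 T cell markers summed to 380 to 384 in cDC1 and to 490 to 534 and 484 to 532 in the cDC2 populations. The higher sums were not shared by the list. Against cDC1, 1 of the 9 was called in CD24+CD172a+ cDC2 (Il7r) and 2 in CD24-CD172a+ cDC2 (Il7r and Cd3d), all higher. Cd5, the brightest of the 9, lay between 7.38 and 7.83 on all 6 arrays. Il7r, the interleukin 7 receptor gene, measured 4.84 and 4.52 in cDC1, 7.52 and 7.11 in CD24+CD172a+ cDC2 and 7.31 and 7.30 in CD24-CD172a+ cDC2, and was called higher in both. Of the CD3 chain genes, Cd3d was called higher in CD24-CD172a+ cDC2 than in cDC1 (0.47, adjusted p = 0.0275 from limma), Cd3e lay between 5.23 and 5.46 on all 6 arrays, and Cd3g was under the 25th percentile in every group, as was Themis. The part of B cells, of monocytes and macrophages, and of T cells in the level of Gpr183 was not tested.

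Cyp7b1, the hydroxylase that completes the EBI2 ligand (probe set 10497381), had another pattern and was highest in CD24+CD172a+ cDC2. It measured 3.45 and 3.62 on the cDC1 arrays, 4.66 and 4.60 on the CD24+CD172a+ arrays, and 3.52 and 3.36 on the CD24-CD172a+ arrays. Both CD24+CD172a+ arrays lay above the other 4, by 0.97 or more, and replicates differed by at most 0.17. The mean of CD24+CD172a+ cDC2 exceeded that of CD24-CD172a+ cDC2 by 1.19 ± 0.13, a 2.28-fold difference, and that of cDC1 by 1.09 ± 0.13, a 2.13-fold difference. These differences share the CD24+CD172a+ arrays. The other 4 arrays all fell under the 25th percentile, and signal over background was not examined, so the size of each difference is uncertain. The level in CD24+CD172a+ cDC2, 4.63 ± 0.05, was itself low. CD24-CD172a+ cDC2 and cDC1 overlapped, at 3.44 ± 0.11 and 3.53 ± 0.12.

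Some markers of other cells moved with Cyp7b1 and others did not. The 8 measured plasmacytoid dendritic cell markers summed to 774 to 792 in CD24+CD172a+ cDC2, 511 on both CD24-CD172a+ arrays and 642 to 655 in cDC1, and 3 of the 8 (Siglech, Tcf4 and Spib) were called higher and 0 lower in CD24+CD172a+ than in CD24-CD172a+ cDC2. Against cDC1 the same 3 were called higher in CD24+CD172a+ cDC2 and 2 were called lower, Ccr9 (-1.79) and Pacsin1 (-0.43). In CD24-CD172a+ cDC2 against cDC1, where the arrays of Cyp7b1 overlapped, Tcf4 (0.85) and Spib (1.29) were called higher. Bst2 (-0.69), Ccr9 (-2.24) and Pacsin1 (-0.45) were called lower there. None of the 8 lay under the 25th percentile on both arrays of any group. The 9 neutrophil markers summed to 276 to 319 in CD24+CD172a+ cDC2, 182 to 201 in CD24-CD172a+ cDC2 and 163 to 185 in cDC1, with 2 called higher than in CD24-CD172a+ cDC2 (S100a8 and S100a9, the calprotectin genes) and 0 lower, 3 called higher than in cDC1 (these and Csf3r) and 0 lower, and 3 under the 25th percentile on both arrays of every group. In CD24-CD172a+ cDC2 against cDC1, Csf3r (1.17) and Mmp8 (0.44) were called higher and 0 lower. S100a8 (-0.69) and S100a9 (-0.37) were not called there. Csf3r averaged 4.72 in cDC1, 5.42 in the CD24+ cDC2 and 5.89 in the CD24- cDC2. It was thus highest where Cyp7b1 was low. Mmp8 lay under the 25th percentile on all 6 arrays. The part of plasmacytoid dendritic cells and of neutrophils in the level of Cyp7b1 was not tested. Stromal cells are a known source of the ligand. None of 10 stromal markers was called in any of the 3 comparisons, with 1, 1 and 0 at an unadjusted limma p under 0.05, and they summed to 264 to 276 in CD24+CD172a+ cDC2, 298 to 303 in CD24-CD172a+ cDC2 and 277 to 298 in cDC1.

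Ch25h, the hydroxylase that begins the route to the ligand (probe set 10467136), was at the dim end on every array. It measured 3.68 and 3.67 in cDC1, 3.69 and 3.63 in CD24+CD172a+ cDC2, and 3.81 and 3.31 in CD24-CD172a+ cDC2, so 5 of 6 arrays lay under their own 25th percentile. The groups overlapped throughout, and the largest distance between replicates (0.50, in CD24-CD172a+ cDC2) exceeded the span of the group means (0.12). At such levels a small difference could not be seen with these arrays, which is not to say that there was none.

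Hsd3b7, which clears the ligand (probe set 10557782), averaged slightly lower in cDC2. It measured 5.09 and 4.87 in cDC1, 4.66 and 4.60 in CD24+CD172a+ cDC2, and 4.79 and 4.57 in CD24-CD172a+ cDC2. Both cDC1 arrays lay above all 4 cDC2 arrays, but the nearest were only 0.08 apart and replicates differed by up to 0.23. The differences from cDC1 were -0.35 ± 0.14 for CD24+CD172a+ and -0.30 ± 0.14 for CD24-CD172a+ cDC2, and the cDC2 populations overlapped (-0.05 ± 0.14). Neither difference from cDC1 was called, and arrays did not overlap for 52.0% and 52.4% of all genes in the same comparisons.

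The 4 S1P receptor genes were nearly level over the populations, with group means that spanned 0.10 to 0.24. S1pr1, whose product leads lymphocytes out of lymphoid organs (probe set 10501586), measured 4.02 and 4.32 in cDC1, 4.24 and 4.12 in CD24+CD172a+ cDC2, and 3.79 and 4.23 in CD24-CD172a+ cDC2. S1pr2, whose product restrains migration (probe set 10591412), measured 5.28 and 5.47, 5.57 and 5.45, and 5.43 and 5.38 in the same order. Neither gene set any population apart by more than its replicates differed.

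S1pr3 (probe set 10405179) measured 4.64 and 4.21 in cDC1, 4.56 and 4.44 in CD24+CD172a+ cDC2, and 4.07 and 4.43 in CD24-CD172a+ cDC2. S1pr4, a receptor gene of blood cells (probe set 10371217), measured 5.55 and 5.56, 5.68 and 5.46, and 5.71 and 5.60. The largest difference among these receptors was that of S1pr3 between the cDC2 populations, 0.24 ± 0.18, and its replicates differed by up to 0.43. Endothelial cells also carry S1P receptors, and 8 endothelial markers summed to 236 to 246 in cDC1, 266 to 271 in CD24+CD172a+ cDC2 and 249 to 254 in CD24-CD172a+ cDC2. That order rested on Pecam1, since the other 7 summed to 160 to 162, 135 to 139 and 138 to 155. Pecam1 (0.72) was called higher and Lyve1 (-0.79) lower in CD24+CD172a+ cDC2 than in cDC1, and the other comparisons called none.

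**Figure D2:**
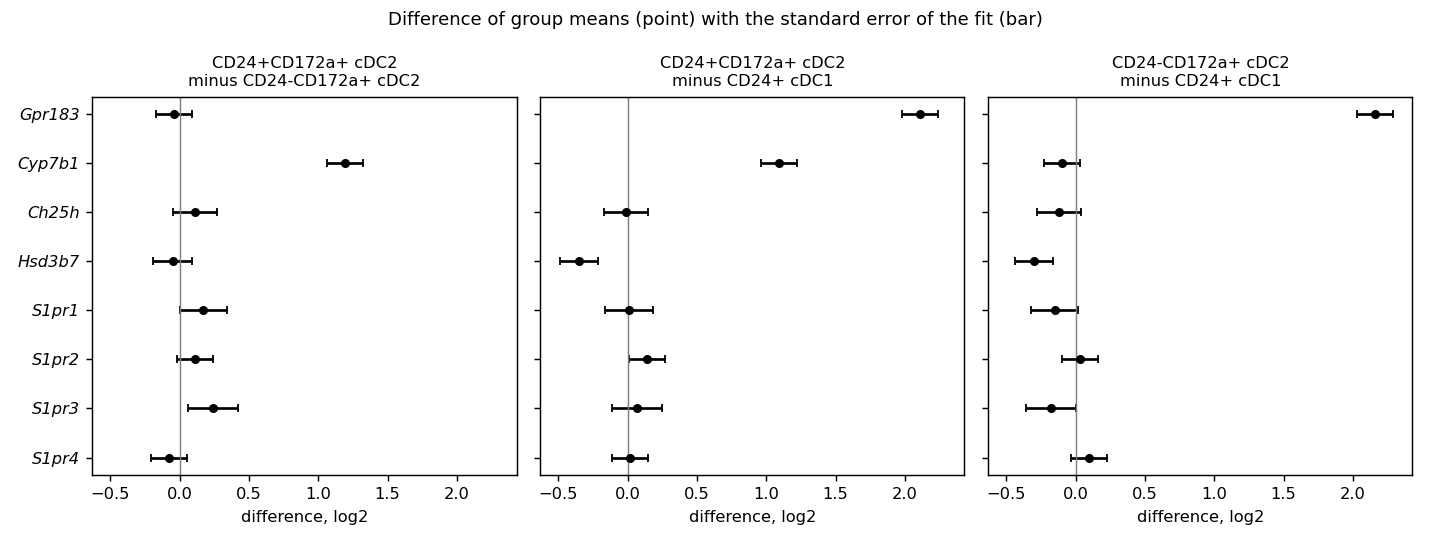
Difference of group means on the log2 scale (horizontal axis) for each of the 8 genes (vertical axis) in the 3 comparisons, with bars for 1 standard error of the fit on either side. Gpr183 stands apart in both comparisons with cDC1 (2.11 and 2.16), Cyp7b1 in both comparisons that involve CD24+CD172a+ cDC2 (1.19 and 1.09), and the other 6 genes lie within 0.35 of 0.

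By the threshold used for all genes, 1 of the 8 (Cyp7b1) passed between the cDC2 populations, where 1.46% of 19938 genes did. In CD24+CD172a+ cDC2 against cDC1, 2 of 8 passed (Gpr183 and Cyp7b1) beside 13.6% of all genes, and in CD24-CD172a+ cDC2 against cDC1, 1 of 8 (Gpr183) beside 15.7%. All of these were higher in the first population of the comparison, as were 0.808%, 7.11% and 6.83% of all genes, with 0.652%, 6.52% and 8.91% lower. Between the cDC2 populations that split, 161 genes higher and 130 lower, became 126 and 160 with cyclic loess. Without CD24+CD172a+ replicate 1 none of the 8 passed between the cDC2 populations, and the difference of Cyp7b1 was then 1.16. Arrays did not overlap for 3 of 8 genes in each comparison, beside 44.2%, 52.0% and 52.4% of all genes in the same order, which shows how little the absence of overlap says with 2 arrays a group. The median difference of the 8 was 0.11, 0.04 and -0.11, and that of all genes -0.01, -0.03 and 0.00. These counts follow from the choice of the genes and support nothing further.

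The genes whose profile over the 6 arrays came closest to that of Gpr183, after each gene was centred on its own mean, were Ifitm1, an interferon-induced membrane protein gene, Lgmn, the gene of the lysosomal protease legumain, Sema4d, a semaphorin gene, and Rnf149, a ubiquitin ligase gene. Their root mean square differences from Gpr183 were 0.07, 0.08, 0.08 and 0.09 on the log2 scale. Lgmn averaged 7.66 in cDC1 and stood at 9.78 and 9.81 in the CD24+ and CD24- cDC2.

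The profile of Cyp7b1 was matched most closely by Siglech, a surface receptor gene of plasmacytoid dendritic cells (0.13), Fbxo5, an inhibitor of the anaphase-promoting complex (0.14), Tet1, a DNA demethylation enzyme (0.16), and Mcm7, of the replicative helicase (0.16). Siglech measured 4.71 and 4.70 in cDC1, 5.73 and 5.99 in CD24+CD172a+ cDC2, and 4.83 and 4.74 in CD24-CD172a+ cDC2. Mcm7 averaged 6.21, 6.95 and 5.93 in the same order, so unlike Cyp7b1 it stood lower in CD24-CD172a+ cDC2 than in cDC1 on each array. These 8 genes were named by their likeness on the same arrays, which all share groups, and the likeness is a description of 6 arrays. The remaining 6 genes of the pathway, whose group means spanned under 1 log2 unit, were not matched in this way.

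**Figure D3:**
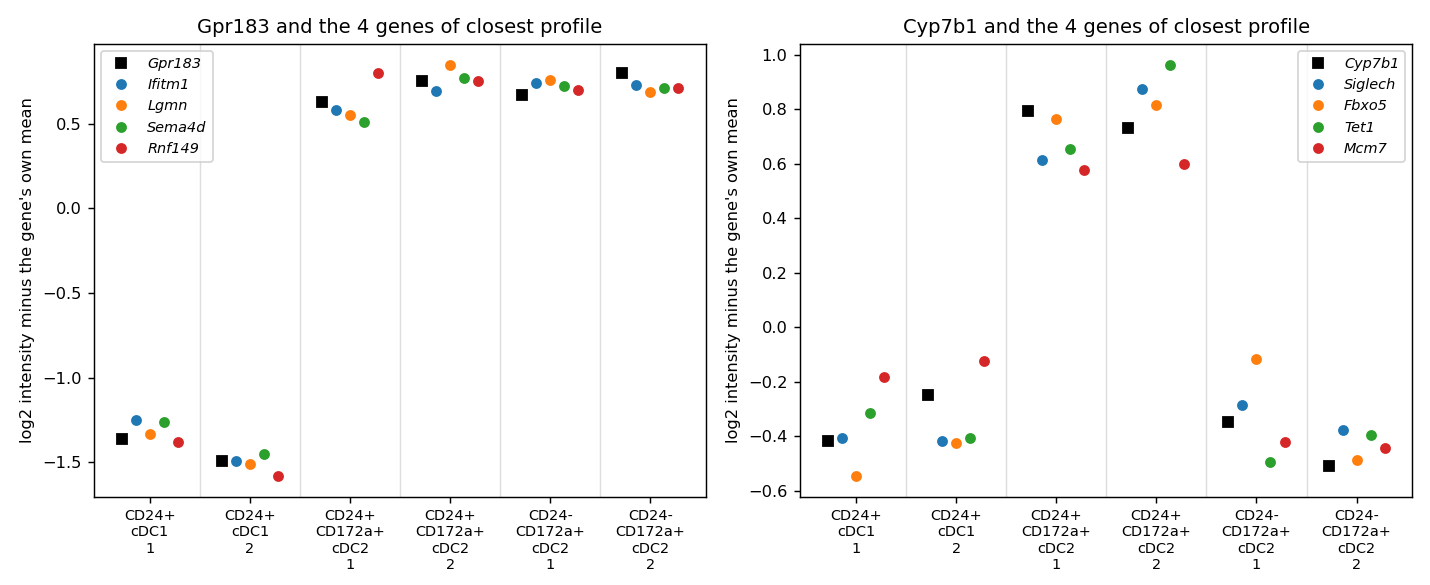
Log2 intensity minus each gene's own mean (vertical axis) on the 6 arrays (horizontal axis, replicate number under the group) for Gpr183 and Cyp7b1 (black squares) and the 4 genes of closest profile to each (circles). The genes beside Gpr183 stay within a narrow band on every array, with root mean square differences of 0.07 to 0.09, and those beside Cyp7b1 are a looser match, at 0.13 to 0.16.

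Around the 8 genes, 5 lists of related genes held 103 genes, of which 90 were measured. Between the cDC2 populations 3 of the 90 were called, beside 1.46% of all genes, with 15 at an unadjusted p under 0.05. Against cDC1, 28 were called in CD24+CD172a+ cDC2 (11 higher and 17 lower) beside 13.6% of all genes, and 34 in CD24-CD172a+ cDC2 (16 higher and 18 lower) beside 15.7%. The comparisons with cDC1 share the cDC1 arrays, so their counts are not independent.

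Of 10 measured enzymes of oxysterol and bile acid synthesis, none was called between the cDC2 populations by limma, with 1 at an unadjusted p under 0.05 (Cyp27a1, the mitochondrial sterol hydroxylase, -0.35 ± 0.13). Cyp27a1 measured 8.84 and 8.95 in cDC1, 8.20 and 8.30 in CD24+CD172a+ cDC2 and 8.50 and 8.70 in CD24-CD172a+ cDC2. Its level thus fell in CD24+CD172a+ cDC2 relative to cDC1 by 0.65 on the log2 scale (SE 0.13, adjusted p = 0.00759 from limma), a call lost when either cDC1 replicate 2 or CD24+CD172a+ replicate 1 was left out (-0.60 each, limma adjusted p = 0.0643 and 0.0676, from 0.00134 to 0.0676 over all alternatives). In CD24-CD172a+ cDC2 its difference of -0.30 was not called (adjusted p = 0.188 from limma). Cyp8b1, a bile acid hydroxylase of liver, fell relative to cDC1 by 0.86 in CD24+CD172a+ cDC2 (adjusted p = 0.00139 from limma) and by 0.76 in CD24-CD172a+ cDC2 (adjusted p = 0.00274 from limma). The median of the list relative to cDC1 was -0.10 for CD24+CD172a+ and 0.05 for CD24-CD172a+ cDC2, and -0.10 between the cDC2 populations.

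Of 16 measured oxysterol sensors and their targets, 3 rose and 3 fell in CD24+CD172a+ cDC2 relative to cDC1, and 4 rose and 3 fell in CD24-CD172a+ cDC2 (medians 0.03 and 0.04). Rora, a nuclear receptor that binds sterols, rose by 1.48 ± 0.14 and 1.91 ± 0.14, and Osbpl8, a member of the oxysterol-binding protein family, by 0.99 ± 0.15 in both. Insig2, which holds the regulators of cholesterol synthesis in the endoplasmic reticulum, fell by 1.14 and 0.94. Abca1, a cholesterol exporter and target of the liver X receptors, rose by 0.97 ± 0.27 and 0.92 ± 0.27, but its CD24+CD172a+ arrays stood far apart at 5.47 and 4.48. The call of Abca1 in CD24+CD172a+ cDC2 ended without cDC1 replicate 1 or 2 or without CD24+CD172a+ replicate 1 (differences of 1.11, 0.84 and 0.48). Its call in CD24-CD172a+ cDC2 ended without any 1 of the 4 arrays compared (differences from 0.78 to 1.07). With all probe sets tested the latter call ended as well (0.92, limma adjusted p = 0.0518). Nr1h3, the gene of liver X receptor alpha, measured 4.24 and 4.57 in cDC1, 4.58 and 4.78 in CD24+CD172a+ cDC2, and 5.24 and 5.26 in CD24-CD172a+ cDC2. It rose in CD24-CD172a+ cDC2 relative to cDC1 by 0.84 ± 0.15 (adjusted p = 0.00291 from limma), and the difference of 0.28 ± 0.15 in CD24+CD172a+ cDC2 was not called (adjusted p = 0.314 from limma). None of the 16 was called by limma between the cDC2 populations, where 4 had an unadjusted p under 0.05, led by Nr1h3 (-0.57 ± 0.15) and Srebf2, a regulator of cholesterol synthesis (-0.47 ± 0.14).

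Of 19 genes of S1P synthesis, breakdown and export, among which the receptor gene S1pr5 was listed, 2 rose and 4 fell relative to cDC1 in each cDC2 population (medians -0.11 and -0.12). Plpp1, a lipid phosphatase of the cell surface that can dephosphorylate S1P, measured 8.0 and 7.71 in cDC1 against 3.62 and 3.46 in CD24+CD172a+ cDC2 and 3.45 and 3.71 in CD24-CD172a+ cDC2. It was the gene of this group that set cDC1 apart the most, falling by 4.31 (adjusted p = 3.23e-08 from limma) and 4.27 (adjusted p = 3.29e-08 from limma). All 4 cDC2 arrays lay under 3.72, so the size of both differences is uncertain. The ceramidase genes Asah1 and Asah2, which release the sphingosine from which S1P is made, fell by 1.45 and 0.93 in CD24+CD172a+ cDC2 and by 1.24 and 0.98 in CD24-CD172a+ cDC2. Cers6, a ceramide synthase that uses up sphingosine, rose by 1.57 ± 0.16 and 1.89 ± 0.16.

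The kinase gene Sphk1, the lyase gene Sgpl1 and the receptor gene S1pr5 were not called. Sphk1, a kinase that makes S1P, averaged 5.39 in cDC1, 5.79 in CD24+CD172a+ and 5.77 in CD24-CD172a+ cDC2 (adjusted p = 0.0564 and 0.0638 against cDC1 from limma, and from 0.0253 to 0.231 over all alternatives, of which 6 called it). Sphk2, another kinase gene of the list, averaged 6.79, 6.68 and 6.51 in the same order, and so was lower in cDC2. Sgpl1, the lyase that destroys S1P, averaged 8.32, 8.27 and 8.55. S1pr5 measured 4.94 and 5.20 in cDC1, 4.73 and 5.27 in CD24+CD172a+ cDC2, and 5.43 and 5.54 in CD24-CD172a+ cDC2. Limma called none of the 19 between the cDC2 populations, and 2 had an unadjusted p under 0.05: S1pr5 (-0.48 ± 0.18) and Sgpl1 (-0.28 ± 0.12).

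Of 23 genes of receptor coupling and desensitisation, 3 rose and 3 fell in CD24+CD172a+ cDC2 relative to cDC1, and 5 rose and 4 fell in CD24-CD172a+ cDC2 (medians 0.09 and 0.12). Cd69, whose product binds S1PR1 and removes it from the surface, measured 5.49 and 5.10 in cDC1, 6.95 and 7.31 in CD24+CD172a+ cDC2, and 6.64 and 7.61 in CD24-CD172a+ cDC2. It rose by 1.84 ± 0.27 (adjusted p = 0.000936 from limma) and 1.83 ± 0.27 (adjusted p = 0.000907 from limma), with the CD24-CD172a+ arrays 0.97 apart. Klf2, a transcription factor known to drive S1pr1 in lymphocytes, rose in CD24-CD172a+ cDC2 by 0.64 ± 0.13 (adjusted p = 0.00778 from limma), a call that ended without cDC1 replicate 1 or CD24-CD172a+ replicate 1 (differences of 0.60 and 0.52, limma adjusted p = 0.0623 and 0.0579, from 0.00279 to 0.0623 over all alternatives), while S1pr1 averaged 4.17 in cDC1 and 4.01 there.

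Among the kinases that switch such receptors off, Grk3 rose relative to cDC1 by 0.84 and 0.96, and Grk5 fell by 1.26 and 0.73, in CD24+CD172a+ and CD24-CD172a+ cDC2. Arrb1, an arrestin, fell by 0.85 in CD24+CD172a+ cDC2, a call that ended without cDC1 replicate 1 or without CD24+CD172a+ replicate 1 or 2 (differences of -0.53, -0.90 and -0.80, limma adjusted p from 0.0693 to 0.105), and by 1.01 in CD24-CD172a+ cDC2. Rac2, a GTPase of leukocyte movement, rose by 0.82 in CD24+CD172a+ cDC2, a call that ended without cDC1 replicate 1 or 2 or CD24+CD172a+ replicate 2 (differences of 0.75, 0.88 and 0.45, limma adjusted p from 0.069 to 0.143). In CD24-CD172a+ cDC2 it rose by 0.86, a call that ended without any 1 of the 4 arrays compared (limma adjusted p from 0.0506 to 0.0989). Grk6 was called between the cDC2 populations, higher in CD24+CD172a+ cDC2 by 0.65 ± 0.13 (adjusted p = 0.0382 from limma). That call was lost without any 1 array of the 6 (differences from 0.59 to 0.72) and with only the 2 groups compared (limma adjusted p = 0.0638).

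Of 22 other receptors for lipids, protons and chemoattractant peptides, 3 rose and 5 fell in CD24+CD172a+ cDC2 relative to cDC1, and 5 rose and 6 fell in CD24-CD172a+ cDC2 (medians 0.04 and 0.08). Lpar6, a receptor for lysophosphatidic acid, measured 9.38 and 9.42 in cDC1, 6.33 and 5.94 in CD24+CD172a+ cDC2, and 6.82 and 7.11 in CD24-CD172a+ cDC2, and so ran against Gpr183. It fell relative to cDC1 by 3.26 ± 0.16 and 2.43 ± 0.16. Ptger3, a receptor for prostaglandin E2, rose by 2.16 ± 0.16 and 2.29 ± 0.16, from 4.02 and 3.78 on the cDC1 arrays to 6.14 and 5.98, and to 6.0 and 6.39, in the cDC2 populations. Of the proton sensors, Gpr65 fell by 1.13 in CD24+CD172a+ and 0.83 in CD24-CD172a+ cDC2, and Gpr4 by 1.40 and 0.59. The call of Gpr4 in CD24-CD172a+ cDC2 ended without cDC1 replicate 1 or CD24-CD172a+ replicate 1 or 2 (differences of -0.43, -0.61 and -0.57). With cyclic loess on all 6 arrays that call ended as well (-0.49, limma adjusted p = 0.0518). Ltb4r1, for leukotriene B4, rose by 0.94 and 0.95. C5ar1, for complement C5a, rose by 0.53 and 0.97, and its call in CD24+CD172a+ cDC2 ended without cDC1 replicate 1 or CD24+CD172a+ replicate 1 or 2 (differences of 0.40, 0.55 and 0.51, limma adjusted p from 0.106 to 0.207).

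The called genes of this list between the cDC2 populations were Lpar6 (-0.83 ± 0.16, adjusted p = 0.0407 from limma) and Gpr4 (-0.82 ± 0.16, adjusted p = 0.0374 from limma), both lower in CD24+CD172a+ cDC2. The call of Gpr4 ended without any 1 of the 4 arrays compared (differences from -0.97 to -0.66), and that of Lpar6 without any 1 of the 6 arrays (differences from -1.03 to -0.63). With all probe sets tested both calls ended as well (limma adjusted p = 0.0501 for Gpr4 and 0.0551 for Lpar6). That of Lpar6 also ended with only the 2 groups compared (limma adjusted p = 0.0652). With Grk6, these are the 3 calls among the 90 related genes in this comparison, and each of the 3 was lost without any 1 of the 4 arrays compared.

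**Figure D4:**
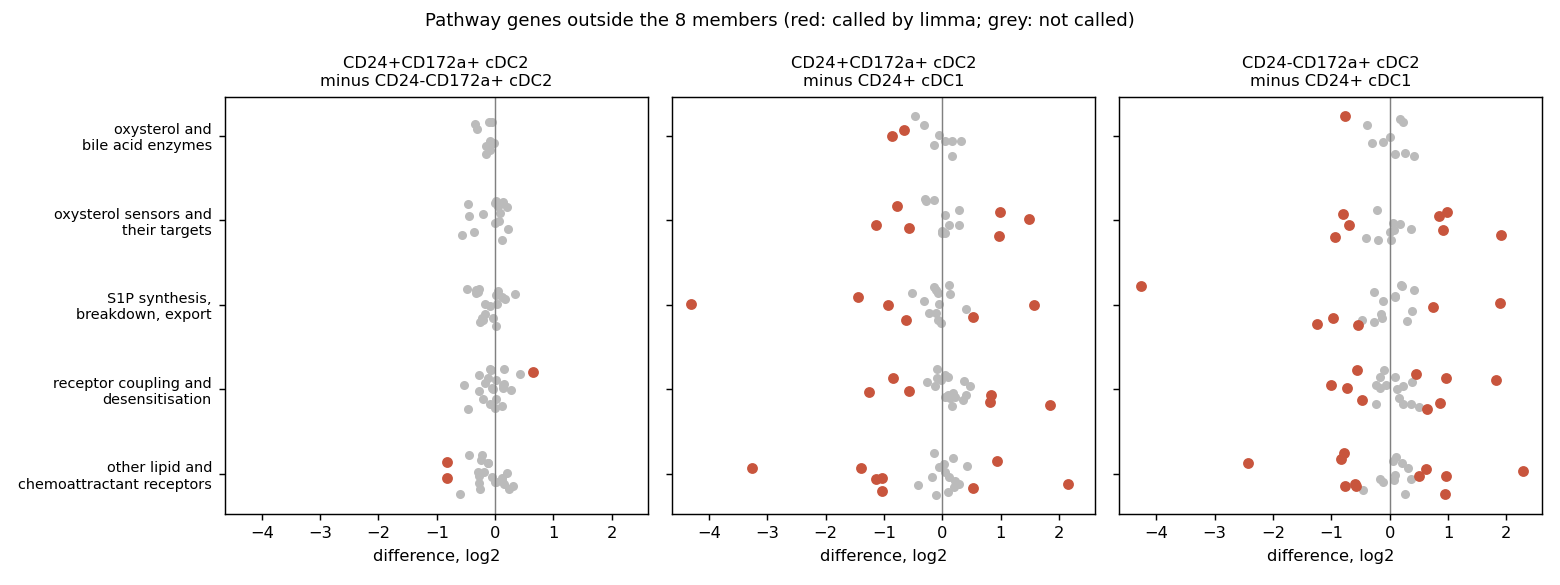
Log2 difference (horizontal axis) of the 90 measured genes of 5 related lists (vertical axis, 1 band a list, points spread for legibility) in the 3 comparisons; red points were called by limma and grey points were not. Between the cDC2 populations 3 points are red, against 28 and 34 in the comparisons with cDC1, where Plpp1 lies farthest to the left at -4.31 and -4.27.

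The other marker lists that were set beside these results hold NK cells, erythroid cells and migratory dendritic cells. Of 8 NK cell markers 0, 0 and 1 were called in CD24+CD172a+ against CD24-CD172a+ cDC2, CD24+CD172a+ cDC2 against cDC1 and CD24-CD172a+ cDC2 against cDC1 (0, 1 and 1 at an unadjusted limma p under 0.05), and of 4 erythroid markers 0 in each (0, 0 and 0 at an unadjusted limma p under 0.05). Of 6 markers of migratory dendritic cells, 2, 4 and 2 were called in the same order (0, 1 and 1 higher, and 2, 3 and 1 lower). They summed to 2286 to 2831 in cDC1, 2123 to 2484 in CD24+CD172a+ cDC2 and 2970 to 3100 in CD24-CD172a+ cDC2. The high sum in CD24-CD172a+ cDC2 rested on Ccr7, since the other 5 summed to 1057 to 1250, 530 to 666 and 610 to 672. The higher sum of those 5 in cDC1 was not shared by each of them. Ccl22 averaged 9.57, 7.46 and 7.35 in the same order, and was called lower than in cDC1 in both cDC2 populations. Socs2 (-0.63) and Nudt17 (-0.97) were called lower than in cDC1 in the CD24+ cDC2 only. Fscn1 averaged 7.38, 8.11 and 7.93, and was called higher than in cDC1 in the CD24+ cDC2 (0.72).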

How the data were processed

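The authors summarised the arrays with RMA in Affymetrix Expression Console, per the submitters' processing notes (background correction, quantile normalisation, median polish per probe set); versions and genome build are not given in the sources used here. The range of the deposited values shows linear intensities, of which log2 was taken here. Quantile normalisation makes all arrays alike in distribution, so a shift of most genes would not be seen. Of 28853 probe sets, 21789 had 1 gene symbol, 1621 several and 5443 none, and only the first were used. Names came from the platform annotation, with gene IDs of 21698 found in the RefSeq table of GRCm38.p6, which changed 0 symbols. For 999 genes with more than 1 such probe set, that of highest mean was kept, giving 19938 genes with no filter on dim ones.

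Pairwise comparisons of the 3 groups used lmFit and eBayes (no trend) of limma 3.58.1, run in R 4.3.3, on all 6 arrays together (3 residual and 7.31 prior degrees of freedom), and adjusted by Benjamini-Hochberg over all genes at 0.05. The fit was tested on simulated data. The 8 genes and all lists were chosen with earlier results of these data known. Beside the 8 genes and the sort markers, the genes named are the called genes of each related list, up to the 4 with the largest difference in a comparison, or the 2 with the smallest p where none was called; 7 further genes whatever their values (6 of them measured, namely S1pr5, Sphk1, Sgpl1, Nr1h3, Klf2 and Cd69); and, for each of the 8 whose group means span at least 1 log2 unit, the 4 genes of smallest root mean square difference over the arrays, without predicted genes, clone names and antigen receptor segments. Marker genes were named after their values were seen, as were Rxra, Mylip and Sphk2 of the related lists, for which no alternatives are given. Alternatives were other handling of probe sets, a filter on dim genes, 3 normalisations, other variance models, array weights, 2 groups only, a block for the replicate number, omission of each array in turn, and treat with a threshold of 1.5-fold. Figures were drawn with matplotlib 3.10.9.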

Additional observations from a re-analysis of the deposited data

How the results depend on the processing

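Gpr183 differed from cDC1 by 2.05 to 2.18 and by 2.09 to 2.22 in the fits without 1 array, and Cyp7b1 differed by 1.11 to 1.27 between the cDC2 populations. Several small differences changed sign when 1 array was left out: those between the cDC2 populations ran from -0.15 to 0.36 for Ch25h, -0.05 to 0.39 for S1pr1 and -0.19 to 0.03 for S1pr4, and that of S1pr3 in CD24+CD172a+ cDC2 against cDC1 from -0.15 to 0.28. Ch25h between CD24+CD172a+ cDC2 and cDC1 was -0.01 and became 0.02 with quantile normalisation again and with cyclic loess. Without genes below the median, Cyp7b1 was not tested, so the genes of the 8 past the threshold went from 1 to 0 between the cDC2 populations and from 2 to 1 in CD24+CD172a+ cDC2 against cDC1; treat gave 0 in the former. Leaving out 1 array gave 0 to 1 there. Between the cDC2 populations all genes called went from 291 to 437 without genes below the median, 464 with an intensity trend and robust variance, 8 with treat, 187 with only the 2 groups compared, and 20 to 187 without 1 array; calls among the 90 related genes went from 3 to 1 with all probe sets, 0 with treat, 1 with only the 2 groups and 0 to 1 without 1 array. With treat, the calls in CD24+CD172a+ cDC2 against cDC1 went from 2718 to 715 over all genes and from 28 to 10 among the related genes, and those in CD24-CD172a+ cDC2 against cDC1 from 3137 to 728 and from 34 to 7. Leaving out 1 array gave 1781 to 2769 and 1922 to 2839 over all genes, and 21 to 29 and 22 to 32 among the related genes. The uncalled difference of Sphk1 between the cDC2 populations turned to -0.03 and -0.02, and that of Cd69 to -0.07 and -0.09, with quantile normalisation again and cyclic loess; leaving out 1 array gave -0.48 to 0.49 for Cd69, and -0.34 to 0.20 for S1pr5 in CD24+CD172a+ cDC2 against cDC1. Of 998 values of named related genes under alternatives, 935 kept their direction and side of the threshold, 49 lost a call, 6 gained one and 8 changed sign. A lone array is assumed to vary like the other groups, and the causes were not tested.

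Replicate numbers recur in each group, but deviations of same-numbered arrays correlated at only 0.02 to 0.08, so they were not taken as pairs. With the replicate number as a block, 411, 2918 and 3323 of all genes, 3, 30 and 35 of the related genes, and 1, 2 and 1 of the 8 genes were called. Signal over background was not examined, which limits what can be said of Ch25h and of Cyp7b1 outside CD24+CD172a+ cDC2, and 2 arrays a group limit the precision throughout.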
